A study of Mus musculus with 14 samples.

Results

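The genes described here encode the subunits of the SWI/SNF chromatin remodellers and of the MLL/COMPASS histone methyltransferases, together with the histone acetyltransferases Ep300 and Crebbp. They were taken by gene symbol from the table of 54332 genes measured over a time course of SOX9 induction in mouse epidermal stem cells (EpdSCs). All 43 genes on the list were found in the table, of which 25 belonged to SWI/SNF, 16 to COMPASS and 2 to the acetyltransferases. The filter of a mean of at least 1 TPM (a length-scaled share of a library's transcripts) over the time course passed 41 of the 43, and left out Dpf1 and Dpf3.

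EpdSCs were sorted by flow cytometry from back skin of CD1 mice labelled as male, of the genotype K14rtTA; TRE-myc-Sox9. In K14rtTA the keratin 14 promoter of basal epidermis drives the doxycycline (DOX)-dependent activator rtTA, and TRE-myc-Sox9 is the MYC-tagged Sox9 gene that rtTA switches on. The transgenes were present in every group, D0 included. Cells were sorted before DOX (D0, postnatal day 21) and after 1 week (W1, postnatal day 28), 2 weeks (W2, day 35), 6 weeks (W6, day 63) and 12 weeks (W12) of DOX, with 2 libraries for each timepoint. The W12 skin had been grafted from newborn mice onto Nude female hosts, and the skin of the earlier timepoints had not. The graft, the age of the skin and the length of induction therefore cannot be told apart at W12, for which no age is given here. Age also rose with DOX from D0 to W6, and no age-matched control without DOX was analysed here. The libraries of a timepoint are labelled as biological replicates, and whether each held 1 mouse or pooled mice is not given in the sources used here. In sorted bulk samples, a change in the make-up of the cells and a change in RNA per cell cannot be told apart.

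SWI/SNF complexes use ATP to slide or evict nucleosomes and so open enhancers and promoters to transcription factors. One of the paralogous ATPases, Smarca4 (BRG1) or Smarca2 (BRM), is joined by a shared core and by subunits that set the complex apart as canonical BAF, PBAF or non-canonical BAF. COMPASS complexes methylate lysine 4 of histone H3. Each is built on one methyltransferase of the KMT2 or SETD1 group, with Kmt2c (MLL3) and Kmt2d (MLL4) acting mainly at enhancers and Setd1a and Setd1b mainly at active promoters, while Ep300 and Crebbp acetylate lysine 27 of the same histone. In skin, BRG1, MLL4 and p300 are among the cofactors that epidermal transcription factors use to keep stem cell enhancers active.

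Promoter sequence is shown for 5 genes whose transcripts turn up repeatedly in the results, to show the kind of start site from which they are read. RefSeq promoters on GRCm38.p6 matched 34 of the 43 genes by symbol, and 20 of them began within 100 bases of the gene start in GENCODE M21. Each run gives the 250 bases before the start, 5′ to 3′ on the strand of the gene, with GGGCGG (a GC box) capitalised in either orientation, where it reads GGGCGG or CCGCCC, and with overlapping matches joined.
Arid1a, chr4:133756770-133757019, minus strand: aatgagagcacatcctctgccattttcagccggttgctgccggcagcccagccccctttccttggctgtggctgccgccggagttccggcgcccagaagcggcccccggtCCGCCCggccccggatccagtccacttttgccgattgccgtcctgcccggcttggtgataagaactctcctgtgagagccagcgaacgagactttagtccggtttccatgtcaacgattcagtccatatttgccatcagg
Smarca4, chr9:21615919-21616168, plus strand: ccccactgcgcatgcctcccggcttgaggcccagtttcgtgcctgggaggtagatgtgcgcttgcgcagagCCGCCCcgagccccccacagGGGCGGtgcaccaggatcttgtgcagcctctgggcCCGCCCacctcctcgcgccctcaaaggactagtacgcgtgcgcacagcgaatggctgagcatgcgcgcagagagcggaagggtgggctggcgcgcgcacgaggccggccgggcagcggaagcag
Smarcb1, chr10:75921615-75921864, minus strand: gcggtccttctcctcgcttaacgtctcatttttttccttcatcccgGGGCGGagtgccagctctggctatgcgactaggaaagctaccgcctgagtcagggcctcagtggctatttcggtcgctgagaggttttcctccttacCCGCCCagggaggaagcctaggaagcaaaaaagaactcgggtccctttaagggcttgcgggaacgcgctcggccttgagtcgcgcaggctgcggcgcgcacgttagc
Kmt2a, chr9:44881290-44881539, minus strand: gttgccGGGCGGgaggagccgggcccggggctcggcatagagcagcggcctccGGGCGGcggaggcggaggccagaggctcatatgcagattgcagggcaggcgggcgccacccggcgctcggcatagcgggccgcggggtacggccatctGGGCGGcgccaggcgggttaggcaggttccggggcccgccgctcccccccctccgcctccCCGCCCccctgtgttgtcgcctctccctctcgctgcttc
Kmt2c, chr5:25498784-25499033, minus strand: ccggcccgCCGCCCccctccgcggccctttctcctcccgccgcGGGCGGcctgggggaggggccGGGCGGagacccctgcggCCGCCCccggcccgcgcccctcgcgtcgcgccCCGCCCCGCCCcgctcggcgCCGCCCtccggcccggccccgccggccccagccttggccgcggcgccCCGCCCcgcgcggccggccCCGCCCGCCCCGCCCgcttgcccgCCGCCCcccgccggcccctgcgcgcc
The Kmt2c window held 12 GC boxes and was 91.6% G or C, whereas Arid1a held 1 and was 61.2% G or C. A GC box lay in 16 of the 20 windows (80%), and in 61.0% of the 7312 windows of all genes tested that met the same rule of distance. The 20 also include Dpf1 and Dpf3, which were not tested and both held a GC box. CCAAT on either strand lay in 4 of the 20 (20%), the untested Dpf1 and Dpf3 among them, and in 38.8% of all windows. CCGGAAG lay in 2 of the 20 (10%) and 15.7%, and TATAAA in none of the 20, which compares with 6.76% of all windows. AACAAT, a SOX-type core, lay only in the Dpy30 window among the 20 (5%) and in 5.11% of all. The windows of the regulators had a median of 65.6% G or C and 21.5 CpG dinucleotides, beside 59.6% and 16 over all genes tested. These matches describe letters and do not show binding.

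Before the results, the libraries were checked against their labels. The MYC-SOX9 transgene was at 45.6 and 89.6 TPM in the D0 libraries, at 3387 and 3414 at W1, and between 606 and 1892 from W2 to W12. D0 replicate 2 stood apart: it carried 4.61 TPM of the female X-inactivation transcript Xist and 0.0278 TPM of the Y-linked Ddx3y, against its label as male, whereas D0 replicate 1 had 0.00103 and 32.1. Both W12 libraries held Xist (5.51 and 3.50 TPM) beside Ddx3y (11 and 12.9). The basal keratins Krt5 and Krt14 stood between 7340 and 37700 TPM in all 10 libraries, with Krt5 at 14800 and 14600 at D0 and 7830 and 7340 at W12, whereas the stem cell keratin Krt15 went from 11200 and 11900 TPM to 322 and 242. Of the 8 genes of epidermal stem cell identity and sorting, 7 were lower at W6 than at D0, and 5 were lower and 1 higher at W12. At W12 the 6 endothelial markers summed to 70.7 and 151 TPM, against 0.149 to 2.08 in the 8 earlier libraries, and these included Pecam1 (CD31), whose protein the sort had selected against, at 26.1 and 59.8 TPM. The 4 endothelial markers tested passed the filter only through the W12 libraries, so their test at W12 adds nothing to these values. Of the 11 immune genes, the 3 tested (Cd74, H2-Aa and H2-Ab1, of antigen presentation) were higher at W12 than at D0. Among those not tested, Cd3e, Cd3g, Cd207 and Trdc read lower in both W12 libraries than in both of D0, and Lyz2 read higher. Adgre1, Itgam and Ptprc overlapped, and Ptprc, which marks all leukocytes, was at or below 0.327 TPM in every library. Of the other lists, 2 of 3 melanocyte markers tested were higher at W12 than at D0 (the list summed to 2.03 and 6.26 TPM at D0 and 13.5 and 11.8 at W12). Of those 3, Tyrp1 passed the filter only with the W12 libraries. Acta2, the 1 muscle and nerve gene tested, was higher than at D0 at W1, W2, W6 and W12. Its list summed to 3.44 and 1.38 TPM at D0, 7.57 to 11.7 from W1 to W6, and 7.87 and 6.12 at W12. Of 8 suprabasal genes, 3 were higher and 2 lower, with sums of 5920 and 2080 TPM at D0 and 13600 and 12000 at W12. The fibroblast list summed to 0.551 to 29.5 TPM outside W6 replicate 2, which had 52.3, nearly all of it Dcn. The immediate-early and stress list, tested whole, had 13 of 18 genes lower at W1 than at D0, where 4.1% of all genes were lower. At W12, 14 of the 18 were lower and 1 was higher. Over all genes, 14.1% were lower at W6, and 25.1% were lower and 17.9% higher at W12. The part of these differences in the results below was not tested.

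Levels were compared on the TPM scale, which is per length. The highest means over the 10 libraries were those of Bcl7c (240 TPM), Dpy30 (171), Smarcd2 (118) and Smarcb1 (99.5). Their order changed with time, and Dpy30 stood above Bcl7c in both W12 libraries (211 and 213 TPM, beside 188 and 179). The enzymes stood far lower: Smarca4 averaged 45.5 TPM and Smarca2 29.5, and the methyltransferases ran from 13.4 for Kmt2c down to 1.25 for Setd1b. The acetyltransferases Crebbp (13.1) and Ep300 (10.3) lay close together. Dpf1 and Dpf3, canonical BAF subunits of neurons and muscle, averaged 0.608 and 0.390 TPM and were not tested. Summed over the 43 genes, the list made up 1680 and 1600 TPM at D0, 1780 and 1930 at W1, 1720 and 1740 at W2, 1670 in each W6 library, and 1230 and 1290 at W12. The W12 sums lay below every earlier library.

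Changes were tested with limma on log2(TPM + 1), and a gene was called at an adjusted P (Benjamini-Hochberg over 13110 genes) under 0.05. At W1 none of the 41 tested regulators was called by limma, where 9.89% of all genes were called, and 11 (26.8%) had an unadjusted P under 0.05, near the 25.6% of all genes that did. Of those 11, 10 had the higher mean at W1. The split by direction over all genes was not counted at this threshold, and by adjusted P 5.79% of all genes were called higher and 4.1% lower. At W2 again none was called by limma, where 15.7% of all genes were, and 8 (19.5%) had an unadjusted P under 0.05, beside 31.3% of all genes. Their median log2 change was 0.28 at W1 and 0.15 at W2, beside 0.09 and 0.06 over all genes, and it was 0.11 and 0.08 with the trends of transcript length and GC across genes taken out. Between W1 and W2, limma called no regulator and 0.114% of all genes, and none of the regulators reached an unadjusted P under 0.05, beside 14.5% of all genes.

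The later timepoints differed. At W6, 4 regulators fell against D0 (Arid1b, Smarcd2, Kmt2c and Kdm6a) and none rose, while 14.1% of all genes fell and 18.3% rose, and the median of the 41 was −0.09, which turned to 0.07 after the length and GC correction. Without D0 replicate 2 the 4 became 1, Arid1b, and with only the D0 and W6 libraries in the fit none was called. At W12, 26 of 41 fell and 1 rose, Dpy30, whose direction turned in the length-corrected values given further on, while 25.1% of all genes fell and 17.9% rose. The median log2 change was −0.79, beside −0.08 over all genes. On the scale corrected for length and GC, 10 fell and 2 rose, with a median of −0.21, where 17.3% of all genes fell and 20.3% rose. In the deposited values SWI/SNF contributed 15 of its 23 tested genes, COMPASS 9 of 16 and the acetyltransferases both of theirs, Crebbp among them, although it too changed sign after correction. Leaving out D0 replicate 2 gave 20 falls and no rise, of which 19 were among the 27, and the 8 calls lost were Smarca2, Smarcc1, Smarcd1, Smarcd3, Pbrm1, Wdr5, Dpy30 and Crebbp. Leaving out W12 replicate 1 gave 13 falls and no rise.

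The steps between neighbouring timepoints were tested in the same fit. From W2 to W6, 3 of 41 regulators fell (Arid1b, Ep300 and Kmt2c) and none rose, where 8.31% of all genes fell and 7.99% rose. An unadjusted P under 0.05 was reached by 12 of the 41 (29.3%), beside 34.3% of all genes. With either W2 library left out limma called none, and with the replicate numbers as a block it called 1. After the length and GC correction Arid1b was still called (−0.48), Ep300 (−0.51, limma adjusted P = 0.103) and Kmt2c (−0.37, adjusted P = 0.128) were not, and Bcl7c was called lower (−0.39). From W6 to W12, 22 fell and none rose, against 13.5% and 6.66% of all genes, with a median log2 change of −0.69 beside −0.16 over all genes. That last count moved with the settings. It was 5 with only the compared timepoints in the fit, 12 with median-ratio scaling, 15 with quantile normalization and 23 with a pseudocount of 0.1. The median log2 change was −0.6 without W12 replicate 1 and −0.7 without W12 replicate 2. Over the whole course, 32 of 41 varied in the moderated F test, where 57.5% of all genes did, and this number was 17 without W12 replicate 1.

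**Figure D1:**
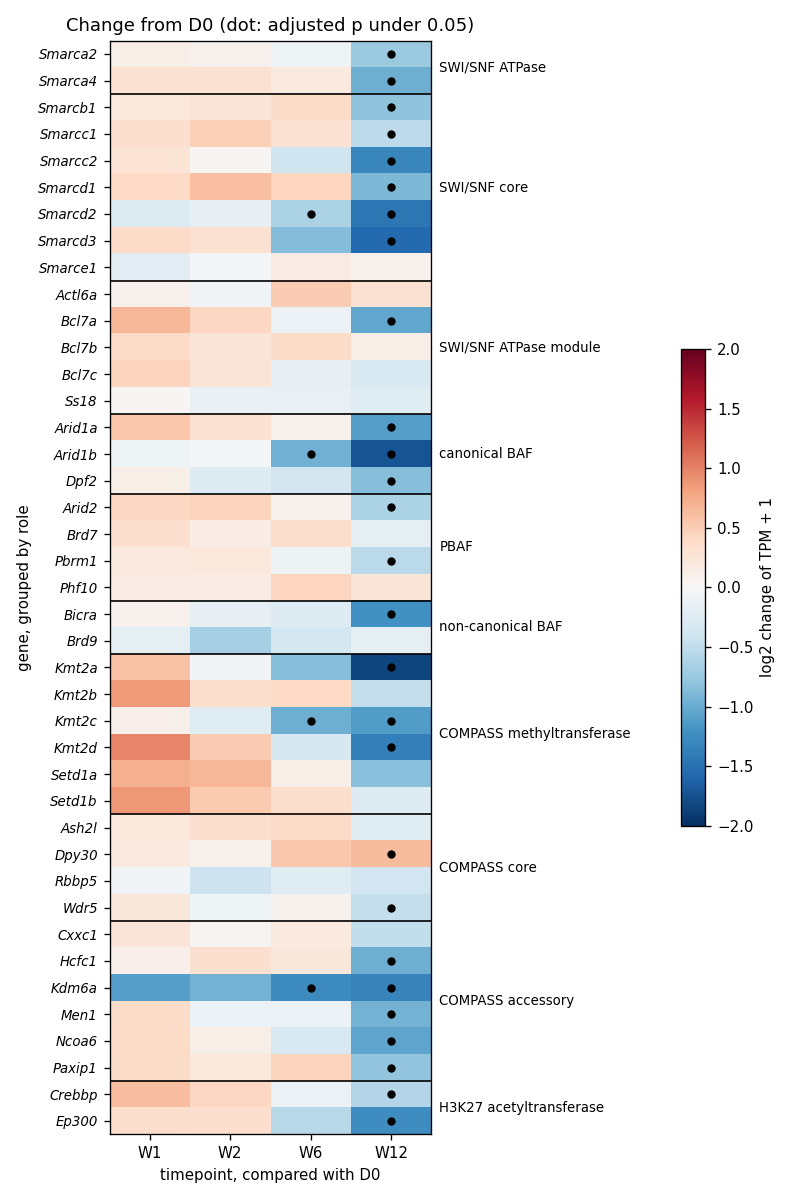
Log2 change of TPM + 1 against D0 at W1, W2, W6 and W12 for the 41 tested genes, in rows grouped by role, with red higher and blue lower than D0 and a black dot where the adjusted P was under 0.05. Dots appear at W6 for 4 genes and at W12 for 27, all of them falls except Dpy30, and both Dpy30 and Crebbp changed sign at W12 after length correction.

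The catalytic ATPases were not called at any timepoint up to W6 and were lower at W12 in the deposited values, a fall that was lost after the length and GC correction. Smarca4 (ENSMUSG00000032187.16, chr9:21616169-21704230, plus strand), the ATPase on which most SWI/SNF complexes of stem cells are built, stood at 41.8 and 47.1 TPM at D0, 52.3 and 57.7 at W1, 55.8 and 53.7 at W2, 52.3 and 49.2 at W6, and 18.9 and 25.9 at W12. Only the W12 libraries lay below those of D0, and the 3 timepoints between lay above. The log2 change at W12 was −0.97 ± 0.17 (SE; limma adjusted P = 0.00249), and −1.16 ± 0.17 from W6 to W12 (adjusted P = 0.00312). Its paralogue Smarca2 had 26.5 and 37.2 TPM at D0 and 16.1 and 21.1 at W12, a change of −0.74 ± 0.20 (adjusted P = 0.0161), which without D0 replicate 2 was −0.50 (adjusted P = 0.0905). After the correction the W12 changes were −0.03 for Smarca4 (limma adjusted P = 0.877) and −0.10 for Smarca2 (adjusted P = 0.619), and Smarca4 was called higher at W6 (0.50, adjusted P = 0.0230).

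Of the 7 core subunits, 6 fell at W12 in the deposited values, where 25.1% of all genes fell. Smarce1 (BAF57), a DNA-binding member, did not pass the test with a log2 change of 0.08, and was called higher after the length and GC correction (0.36). Smarcd2 (BAF60B; ENSMUSG00000078619.10, chr11:106263179-106272972, minus strand), which links the complex to transcription factors, had 138 and 181 TPM at D0, 128 and 134 at W1, 133 and 149 at W2, 114 and 90.4 at W6, and 52.0 and 64.0 at W12. W6 and W12 lay wholly below D0 and W12 below every other timepoint. Its log2 change was −0.64 ± 0.19 at W6 (limma adjusted P = 0.0296; without D0 replicate 2, −0.44, adjusted P = 0.155) and −1.44 ± 0.19 at W12 (adjusted P = 0.000560). Smarcb1 (SNF5; chr10:75896769-75921617, minus strand), the core subunit that grips the nucleosome, went the other way first: 98.6 and 91.7 TPM at D0 became 122 and 123 at W6, a log2 difference that did not pass the test, and then 48.5 and 60.9 at W12. The fall from W6 to W12 was −1.16 ± 0.14 (limma adjusted P = 0.00136).

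The remaining core subunits shared the low W12 values. Smarcc2 (BAF170), one of the scaffold pair, fell from 33.8 and 41.1 TPM at D0 to 12.9 and 16.1 at W12, a log2 change of −1.31 ± 0.19 (limma adjusted P = 0.000895). Its partner Smarcc1 (BAF155) fell from 41.7 and 42.6 to 30.4 and 27.6 TPM, with a change of −0.53 ± 0.15 (limma adjusted P = 0.0200), lost without D0 replicate 2 (adjusted P = 0.0627). Smarcd1 had 5.03 and 6.19 TPM at D0, 6.57 and 8.93 at W1, 8.96 and 9.05 at W2, 9.34 and 6.62 at W6, and 2.61 and 2.44 at W12, with a step of −1.33 ± 0.22 from W6 to W12. Every library between D0 and W12 lay above those of D0, and both W12 libraries lay below. Smarcd3, the paralogue known from heart and muscle, had 5.91 and 8.01 TPM at D0, 9.89 and 8.67 at W1, 9.56 and 7.95 at W2, 1.78 and 5.81 at W6, and 1.25 and 2.25 at W12, a W12 change of −1.55. Its W6 libraries lay far apart, and those of W12 lay below D0. After the length and GC correction Smarcc1 (−0.08), Smarcd1 (−0.23) and Smarcd3 (−1.21) were not called at W12 against D0.

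Arid1a and Arid1b, the large DNA-binding subunits that define canonical BAF, both fell at W12 in the deposited values, of which only the fall of Arid1b was called after the length and GC correction. Arid1a (ENSMUSG00000007880.16, chr4:133679008-133756769, minus strand) stood at 8.19 and 9.15 TPM at D0, 12.3 and 14.2 at W1, 11.1 and 10.8 at W2, 9.84 and 8.75 at W6, and 3.20 and 3.85 at W12. The W1 and W2 libraries lay above D0 without overlap, with a W1 change of 0.56 ± 0.18 that did not pass the test (limma adjusted P = 0.0839), and W12 lay below all others, with a change of −1.10 ± 0.18 (adjusted P = 0.00162), which was −0.12 after the correction (adjusted P = 0.548). Arid1b (ENSMUSG00000069729.14, chr17:4994332-5347656, plus strand) had 26.7 and 35.1 TPM at D0, 27.8 and 29.8 at W1, 29.5 and 30.4 at W2, 14.8 and 15.6 at W6, and 8.65 and 8.43 at W12. W6 lay below all earlier libraries and W12 below those of W6. Its log2 changes were −0.96 ± 0.16 at W6 (limma adjusted P = 0.00344) and −1.73 ± 0.16 at W12 (adjusted P = 0.000118), and the W12 fall passed the threshold in all 13 alternative settings. Dpf2, a histone reader of canonical BAF, fell from 44.6 and 53.8 TPM at D0 to 24.3 and 29.5 at W12 (−0.85 ± 0.18).

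**Figure D2:**
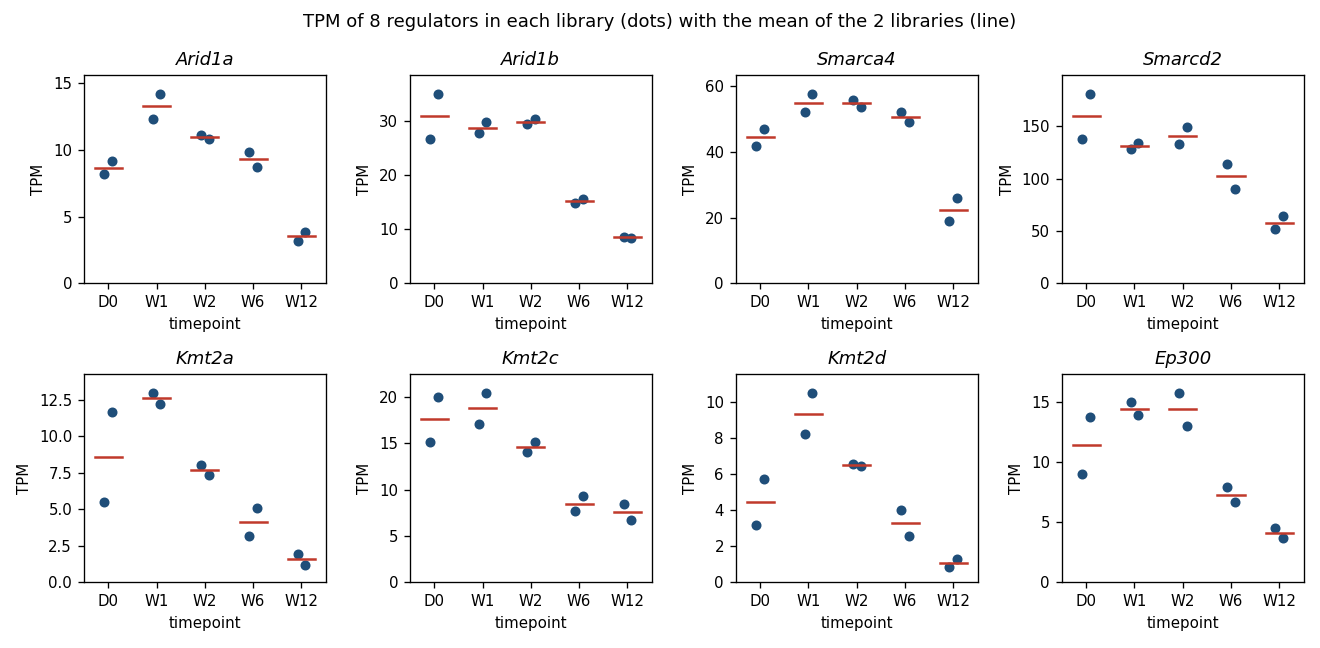
TPM (vertical axis, from 0) at D0, W1, W2, W6 and W12 for Arid1a, Arid1b, Smarca4, Smarcd2, Kmt2a, Kmt2c, Kmt2d and Ep300, with a dot per library and a red line at the mean of the 2 libraries. The W12 libraries lie below those of D0 in all 8 panels, and both W6 libraries lie below both of D0 for Arid1b, Smarcd2, Kmt2a, Kmt2c and Ep300.

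In PBAF 2 of 4 genes were called lower at W12, and in the ATPase module 1 of 5, the latter near the 25.1% of all genes that fell. Of the PBAF genes, the ARID subunit Arid2 (9.14 and 8.29 TPM at D0, 5.38 and 5.19 at W12; −0.63 ± 0.16) and Pbrm1, the polybromo subunit (58.1 and 57.1 to 39.5 and 39.0 TPM; −0.54 ± 0.16), fell at W12 against D0, whereas the bromodomain protein Brd7 (−0.20) and Phf10 (0.25) did not pass the test. Bcl7a was the only one of 5 ATPase module genes to fall, from 4.54 and 4.21 to 1.65 and 1.56 TPM (−1.04 ± 0.19; limma adjusted P = 0.00312). The actin-like Actl6a (BAF53A), known for holding epidermal progenitors undifferentiated, had 93.5 and 61.5 TPM at D0 and 90.5 and 98.5 at W12, with Bcl7b (0.13), Bcl7c (−0.31) and Ss18 (−0.25) also not called. In non-canonical BAF, the scaffold Bicra fell from 1.82 and 3.44 TPM to 0.548 and 0.512, and Brd9, its bromodomain subunit, read 30.2 and 24.4 at D0 and 24.1 and 23.1 at W12 (−0.19, not called). After the length and GC correction Arid2 (−0.27), Bcl7a (−0.48) and Bicra (−0.15) were not called.

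The methyltransferases were low throughout and had their highest sum at W1. Their sum was 28.7 and 45.2 TPM at D0, 49.0 and 59.1 at W1, 38.2 and 39.7 at W2, 23.8 and 24.3 at W6, and 14.4 and 12.6 at W12, so that W1 lay above and W6 and W12 below both D0 libraries. Kmt2d (MLL4; ENSMUSG00000048154.17, chr15:98831669-98871204, minus strand) stood at 3.15 and 5.69 TPM at D0, 8.18 and 10.5 at W1, 6.55 and 6.42 at W2, 3.98 and 2.57 at W6, and 0.823 and 1.31 at W12. The W1 and W2 libraries exceeded D0 and those of W12 fell short of it. The W1 change of 0.97 ± 0.29 did not pass the test (limma adjusted P = 0.0721). It was 1.31 without D0 replicate 2 (limma adjusted P = 0.0401), 0.62 without D0 replicate 1 (adjusted P = 0.216) and 0.31 after the length and GC correction (adjusted P = 0.385). The W12 change was −1.36 ± 0.29 (limma adjusted P = 0.00609), and −0.22 after the correction (adjusted P = 0.418).

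Kmt2c (MLL3; ENSMUSG00000038056.15, chr5:25271798-25498783, minus strand), the paralogue of Kmt2d, had 15.2 and 20 TPM at D0, 17.1 and 20.5 at W1, 14.1 and 15.2 at W2, 7.65 and 9.28 at W6, and 8.50 and 6.74 at W12. W6 lay below all earlier libraries, and W6 and W12 overlapped each other. The log2 change was −0.97 ± 0.20 at W6 (limma adjusted P = 0.00854; without D0 replicate 2, −0.78, adjusted P = 0.0514) and −1.11 ± 0.20 at W12 (adjusted P = 0.00319). Kmt2a (MLL1; ENSMUSG00000002028.13, chr9:44803355-44881296, minus strand), best known from leukaemia, read 5.51 and 11.7 TPM at D0, 13 and 12.2 at W1, 8.06 and 7.35 at W2, 3.15 and 5.12 at W6, and 1.94 and 1.19 at W12. The D0 libraries lay far apart, but W6 and W12 lay below both. Its W12 change of −1.84 ± 0.33 (limma adjusted P = 0.00287) became −1.36 without D0 replicate 2 (adjusted P = 0.0152).

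Kmt2b, Setd1a and Setd1b were not called at W12 against D0, with log2 changes of −0.48, −0.83 and −0.26. All 3 turned in sign after the length and GC correction, to 0.63, 0.16 and 0.85, of which that of Setd1b was called (limma adjusted P = 0.0103). At W1 Kmt2b (4.48 and 7.50 TPM, from 2.59 and 2.97 at D0) and Setd1b (2.23 and 2.21, from 0.519 and 1.04) lay above D0 without overlap, at limma adjusted P of 0.0619 and 0.0587, and after the length and GC correction at 0.259 and 0.178. In the deposited values Kmt2b fell from W6 to W12 (3.99 and 4.0 to 1.48 and 1.95 TPM; −0.88 ± 0.24), a step that was −0.11 after the correction (limma adjusted P = 0.791).

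In the shared COMPASS core, Dpy30, the small subunit that dimerises on Ash2l, was the only regulator called higher at W12 in the deposited values with all libraries fitted. Dpy30 read 173 and 108 TPM at D0, 149 and 165 at W1, 145 in each W2 library, 178 and 221 at W6, and 211 and 213 at W12. The W12 libraries lay above both of D0, but the D0 values were themselves far apart. The change of 0.63 ± 0.21 (limma adjusted P = 0.0407) was lost without D0 replicate 2 (0.29, adjusted P = 0.199) and turned to −0.26 after the length correction. Wdr5, the scaffold that reads the histone tail, fell at W12 (24.9 and 30.2 to 18 and 21.2 TPM; −0.47 ± 0.16), also lost without D0 replicate 2 (−0.33, adjusted P = 0.173) and after the length correction (−0.21, adjusted P = 0.267). Ash2l and Rbbp5 were not called against D0, although Ash2l fell from W6 to W12 (51.5 and 60.3 to 34.1 and 37.9 TPM; −0.62 ± 0.14).

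Among the 6 accessory subunits, 5 fell at W12 in the deposited values, where 25.1% of all genes fell. The CpG-binding Cxxc1 (−0.49, limma adjusted P = 0.0543) did not pass. Ncoa6, the nuclear receptor coactivator of the MLL3 and MLL4 complexes, went from 11.2 and 16.7 TPM at D0 to 6.50 and 5.78 at W12. Their subunit Paxip1 (PTIP) had 19.5 and 15.7 TPM at D0, 22.2 and 23.5 at W1, 21 and 19.9 at W2, 27.5 and 21 at W6, and 8.93 and 10.5 at W12, so that the libraries of W1 to W6 lay above D0 and those of W12 below. The menin gene Men1, a subunit of the MLL1 and MLL2 complexes, went from 28.3 and 22.6 to 10.2 and 15.8 TPM. The log2 changes of these 3 were −1.05, −0.79 and −0.94, and after the length and GC correction −0.49, −0.22 and −0.24, none of them called.

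Kdm6a and Hcfc1 lie on the X chromosome and are given with and without the Xist-positive D0 library. Both W12 libraries also carried Xist (5.51 and 3.5 TPM), whereas D0 replicate 1 had 0.00103 TPM. Leaving out D0 replicate 2 therefore does not match D0 with W12 for Xist. Kdm6a (UTX; ENSMUSG00000037369.17, chrX:18162575-18279936, plus strand), the H3K27 demethylase of the MLL3 and MLL4 complexes, is a gene that escapes X inactivation. It stood at 21.9 and 43.2 TPM at D0, 12.3 and 15.4 at W1, 15.3 and 15.8 at W2, 9.90 and 14.8 at W6, and 11.6 in each W12 library. The high value was that of the Xist-positive D0 replicate 2, in which the Y-linked paralogue Uty was listed at 0, but both D0 libraries lay above all 8 later ones. Kdm6a fell at W6 (−1.28 ± 0.30, limma adjusted P = 0.0140) and at W12 (−1.34 ± 0.30, adjusted P = 0.00838). Without D0 replicate 2 the changes were −0.80 (limma adjusted P = 0.0688) and −0.86 (adjusted P = 0.0409), so that the W6 call was lost. Hcfc1 (ENSMUSG00000031386.14, chrX:73942792-73966357, minus strand), a cell cycle cofactor bound by SET1 and MLL complexes, had 9.99 and 11.3 TPM at D0, 12 and 11 at W1, 13.3 and 13.7 at W2, 15.4 and 10.5 at W6, and 4.04 and 5.92 at W12. D0 replicate 2 did not stand out for Hcfc1, and the W12 fall was −0.98 ± 0.23 with it (limma adjusted P = 0.00909) and −0.90 without it (adjusted P = 0.0499), and it was −0.15 after the length and GC correction (adjusted P = 0.550).

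Both acetyltransferases fell at W12 in the deposited values, though Crebbp changed sign after length correction. Ep300 (p300; ENSMUSG00000055024.12, chr15:81585351-81652077, plus strand) had 8.99 and 13.8 TPM at D0, 15.0 and 13.9 at W1, 15.8 and 13 at W2, 7.90 and 6.72 at W6, and 4.55 and 3.69 at W12. It fell from W2 to W6 (−0.89 ± 0.23, limma adjusted P = 0.0350), a call lost when either W2 library was left out, and stood at −1.25 ± 0.23 at W12 against D0 (adjusted P = 0.00302). Crebbp (CBP) went from 10 and 14.0 TPM at D0 to 18.8 and 18.5 at W1, 10.7 and 11 at W6, and 8.04 and 7.16 at W12. Its W12 change of −0.58 ± 0.18 (limma adjusted P = 0.0313) was lost without D0 replicate 2 (−0.36, adjusted P = 0.162) and was 0.13 after the length correction.

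**Figure D3:**
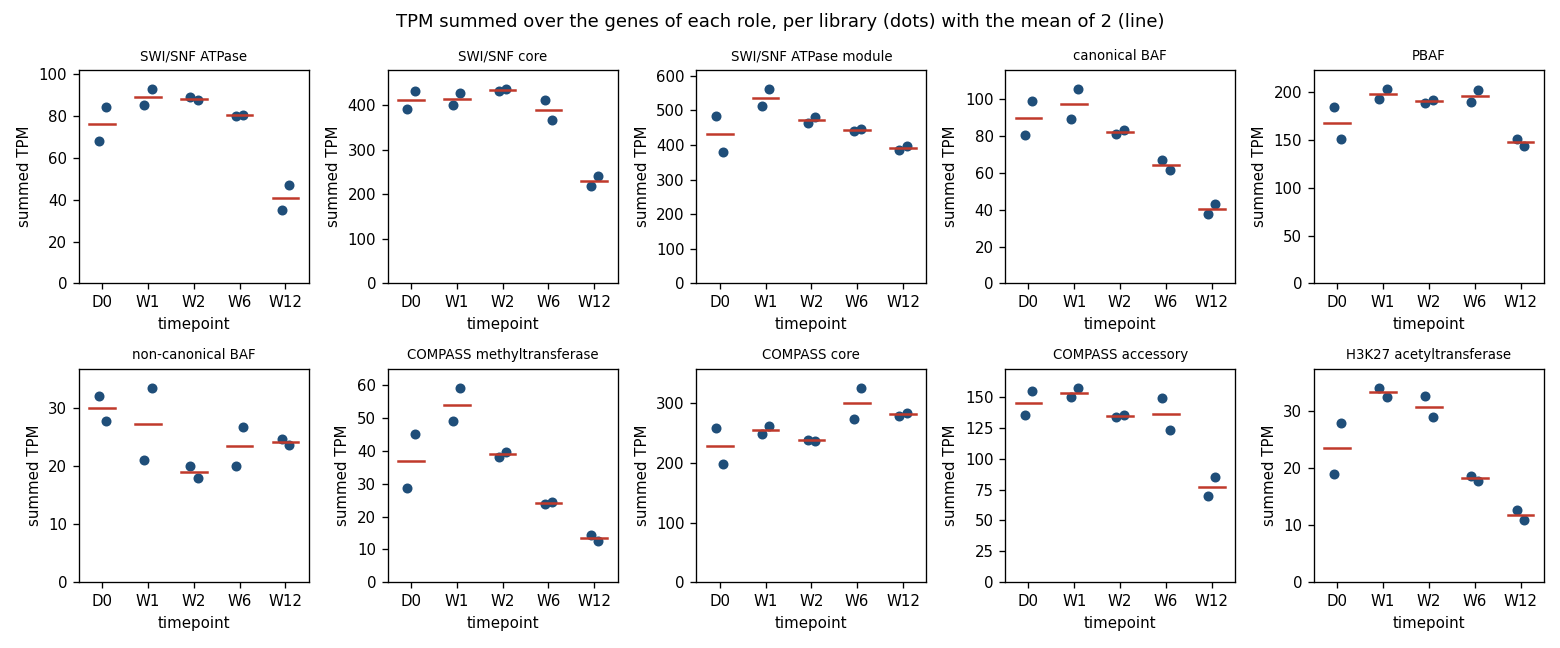
TPM summed over the genes of each of 10 roles (vertical axis, from 0) at D0, W1, W2, W6 and W12, with a dot per library and a red line at the mean of the 2 libraries. The W12 sums lie below both D0 libraries for the ATPases, the core, canonical BAF, the methyltransferases, the accessory subunits, the acetyltransferases and non-canonical BAF, and above both for the COMPASS core, which Dpy30 dominates and whose change in Dpy30 turned in sign after length correction.

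Within paralogue groups the share of each gene in the summed TPM was taken per library, as a description without a test. Smarcc1 made up 55.3% and 50.9% of the Smarcc pair at D0 and 70.3% and 63.2% at W12. Ep300 made up 47.3% and 49.6% of Ep300 and Crebbp at D0, and 36.2% and 34.0% at W12. In neither pair did the D0 and W12 shares overlap.

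Kmt2c made up 82.8% and 77.9% of Kmt2c and Kmt2d at D0, 67.7% and 66.1% at W1, and 91.2% and 83.7% at W12. These shares use the deposited TPM of long transcripts, and after the length and GC correction the log2 change at W12 was larger for Kmt2c (−0.61) than for Kmt2d (−0.22), the reverse of the deposited values (−1.11 and −1.36). Arid1b held 76.5% and 79.3% of the ARID1 pair at D0 and 60.1% and 64.1% at W6, and 73.0% and 68.6% at W12. Smarca4 held between 53.9% and 65.4% of the ATPase pair in all 10 libraries, and Smarcd2 between 87.8% and 93.2% of the SMARCD group.

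**Figure D4:**
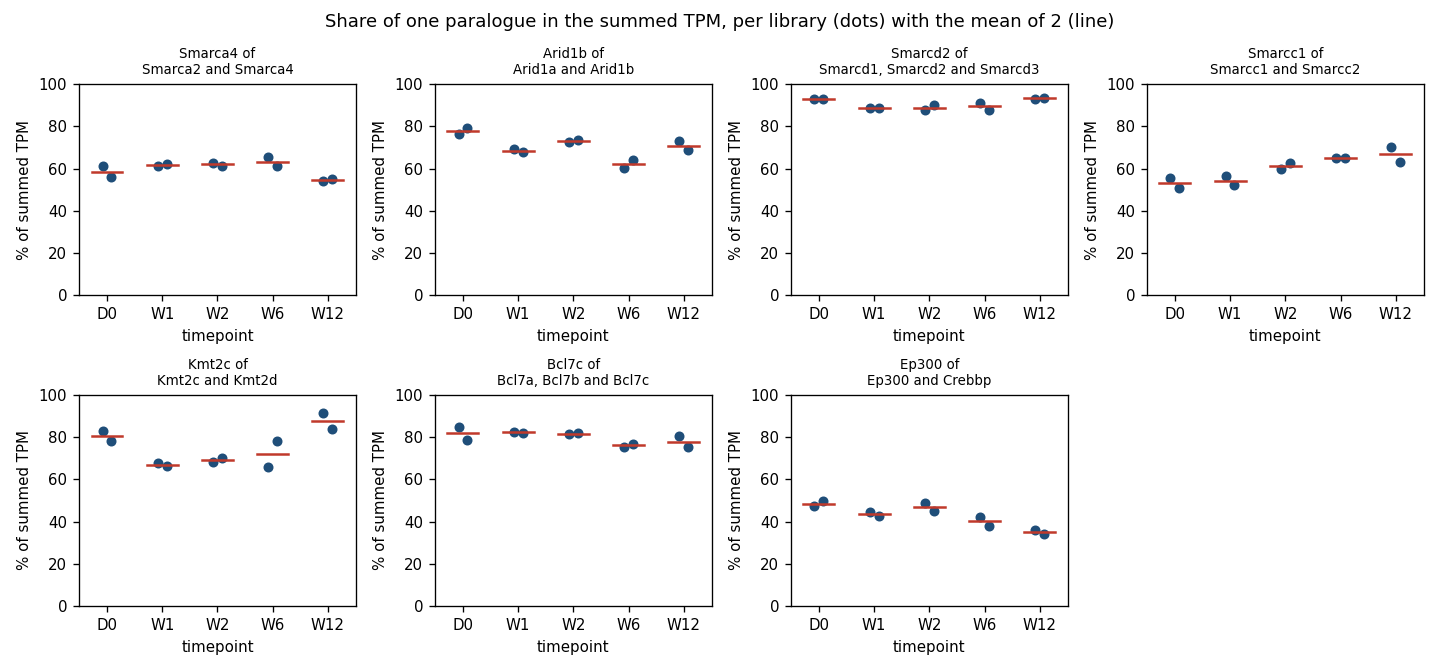
Share of one paralogue in the summed TPM of its group, in percent (vertical axis, 0 to 100), at D0, W1, W2, W6 and W12 for 7 groups, with a dot per library and a red line at the mean of 2. The Smarcc1 share is higher and the Ep300 share lower at W12 than at D0, and the mean Kmt2c share is lowest at W1.

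Because long transcripts read lower at W12 across the whole table, the falls were set against transcript length. Over 13099 genes the Spearman correlation of length with the W12 change was −0.335, and over the 41 regulators it was −0.52 (across genes, which share the same 10 libraries). Among the regulators above their median length of 4718 bases or at it, 18 of 21 fell, with a median change of −0.98, and among the shorter ones 8 of 20 fell and 1 rose, with a median of −0.35. Over all genes on the same side of that length, 40.0% of the longer and 21.3% of the shorter ones fell. The regulators are long as a group, from the 789 bases of Dpy30 to the 19823 of Kmt2d. At W6 the correlation with length was −0.256 over all genes and −0.339 over the regulators. At W1 and W2 it was positive over the regulators (0.308 and 0.27), beside 0.00875 and −0.0742 over all genes.

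The values were then corrected in each library for smooth curves of length and GC content and fitted again. At W12 the median change of the regulators went from −0.79 to −0.21, and the 26 falls became 10, all of which were among the 26, beside 2 rises. Over all genes, 17.3% fell and 20.3% rose after this correction. The 10 were Arid1b (−0.94 ± 0.12), Smarcb1 (−0.71 ± 0.10), Smarcc2 (−0.62 ± 0.12), Smarcd2 (−0.91 ± 0.13), Pbrm1 (−0.34 ± 0.11), Dpf2 (−0.52 ± 0.14), Kmt2a (−1.15 ± 0.28), Kmt2c (−0.61 ± 0.15), Kdm6a (−1.15 ± 0.28) and Ep300 (−0.59 ± 0.20). Arid1a (−0.12 ± 0.15), Smarca4 (−0.03 ± 0.14) and Kmt2d (−0.22 ± 0.20) were no longer called, although all 3 had fallen before it. Setd1b (0.85 ± 0.19) and Smarce1 (0.36 ± 0.12) were called higher instead. Kmt2a and Arid1b (16470 and 11325 bases) and the shorter Smarcb1 and Smarcd2 (1660 and 2747 bases) were thus called lower with and without the correction.

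The correction also changed W6. Arid1b, Smarcd2, Kmt2c and Kdm6a were again lower than D0, together with Bcl7c, and 7 regulators were now higher: Smarca4 (0.50 ± 0.14), Smarcc1 (0.43 ± 0.14), Smarcd1 (0.59 ± 0.18), Kmt2b (0.74 ± 0.23), Setd1b (0.68 ± 0.19), Ash2l (0.35 ± 0.11) and Paxip1 (0.62 ± 0.19). Over all genes, 16.8% were lower and 17.6% higher at W6 on this scale. From W6 to W12, 6 of the 22 falls were left, those of Smarca4, Smarcb1, Smarcc1, Smarcd1, Ash2l and Paxip1, where 5.30% of all genes fell and 8.60% rose, and the median of the regulators went from −0.69 to −0.28. At W1 Arid1b (−0.48 ± 0.12) and Kdm6a (−1.09 ± 0.28) were called lower after the correction, although the deposited W1 change of Kdm6a went from −1.10 to −0.63 without the Xist-positive D0 library (limma adjusted P = 0.185). At W2 Brd9 was called lower (−0.70 ± 0.21), while 6.14% of all genes were lower at W1 on this scale and 9.39% at W2.

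**Figure D5:**
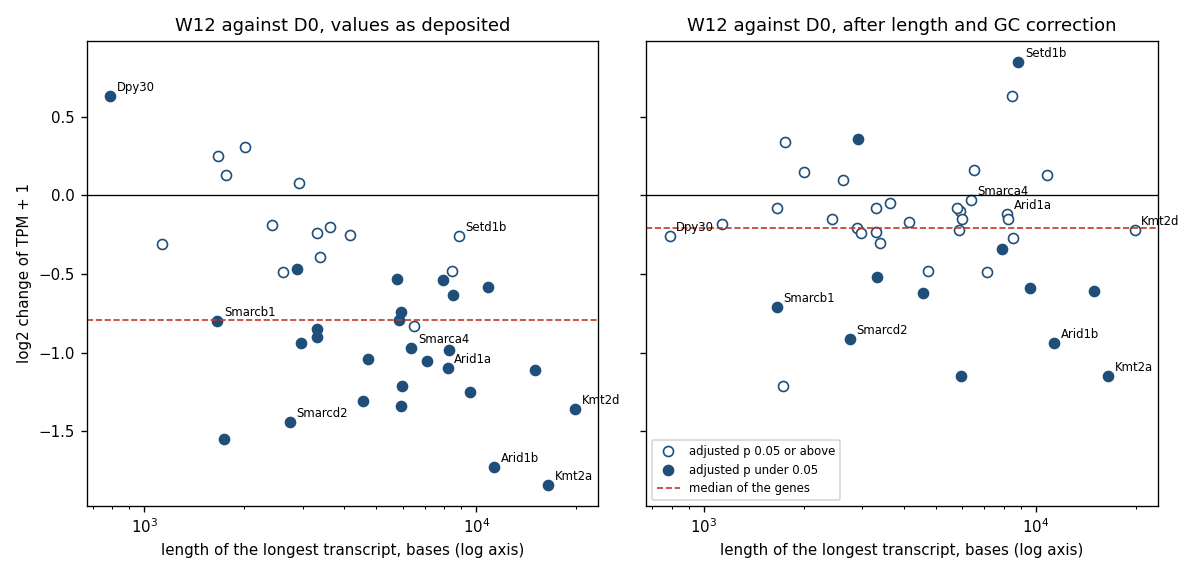
Log2 change of TPM + 1 from D0 to W12 (vertical axis) against the length of the longest transcript in bases (log axis) for the 41 genes, as deposited (left) and after the length and GC correction (right), with filled circles at an adjusted P under 0.05, the median as a dashed red line and 0 as a black line. The median moves from −0.79 to −0.21, and Dpy30 passes from above 0 to below it.

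Genes of related function were read from the uncorrected values, in which 25.1% of all genes fell at W12. Of 8 further SWI/SNF and COMPASS subunits outside the list, 7 were tested and 4 fell at W12 (Bicral, the paralogue of Bicra, −1.65; Ss18l1, −0.79; Wdr82, −0.79; and Actb, −0.71), with a median of −0.71. Of 8 other histone acetyltransferases, 4 fell (Kat6b, Kat6a, Kat7 and Kat5) and Hat1, which acetylates new histones, rose by 0.89 ± 0.27, with a median of −0.55. Of 5 demethylases that remove H3K4 methylation, 2 fell (Kdm5c and Kdm5b), with a median of −0.58. The sex-linked Kdm5c read 18.3 and 35.2 TPM at D0, the higher value in the Xist-positive replicate 2, and 11.3 and 12.6 at W12. The 23 ATP-dependent remodellers of other families had 22 tested, of which 6 fell and 1 rose, with a median of −0.20, against the median of −0.79 for the SWI/SNF, COMPASS and acetyltransferase genes and −0.08 for all genes. Those 6 made up 27.3% of the 22, close to the share over all genes. These medians are descriptions and their differences were not tested.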

How the data were processed

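RNA of sorted EpdSCs was measured in 10 libraries, 2 at each of D0, W1, W2, W6 and W12, grouped by the sample labels. The authors trimmed reads with Skewer, quantified transcripts with Salmon 1.4.0 on a GRCm38 index of GENCODE transcripts with the transgene added, summed them to genes with Tximport 1.12.3, and deposited TPM. TPM sum to 1000000 in each library and keep no read numbers, so that the depth of each library is unknown and no counting error is given. A second deposited table, of the authors' own test on embryonic placode cells, holds only their comparison and was not used here.

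A mean of 1 TPM or more was met by 13110 genes, which were tested on log2(TPM + 1), a scale on which changes of low genes are understated. limma 3.58.1 in R 4.3.3 fitted the 5 timepoint means over the 10 libraries with eBayes and a trend, leaving 5 residual degrees of freedom, and Benjamini-Hochberg adjusted P over all genes. The study names a count test for the time course, which TPM do not allow. The script was first tested on simulated data. Lengths and GC content are those of the longest transcript in GENCODE M21 on GRCm38, which matched 54097 genes. They were removed from each library's deviations by lowess curves (span 0.3, 5 rounds). Promoters were taken from RefSeq on GRCm38.p6.

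The text names all 43 genes, with values in every library for 8 genes of the complexes, the X-linked pair and the 4 largest changes in each direction past the threshold at W6 and W12 against D0 and from W6 to W12. The members and lists were chosen with earlier results of these data known. Salmon divides reads that fit several paralogues, so the shares within paralogue groups carry that uncertainty, and the strand setting is not given in the sources used here. Alternatives changed the pseudocount (0.1), the filter (any TPM above 0, or a mean of at least 5), the scaling, the trend, the libraries in the fit, the block of replicate numbers, and left out each library in turn. For a comparison of timepoints, only those leave-out fits that lacked a library of the compared timepoints were counted. Replicate numbers come from the labels, and same-numbered libraries of different timepoints are different mice.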

Additional observations from a re-analysis of the deposited data

Results flagged for a closer look

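For 9 genes that fell at W12 against D0, the fitted change at W6 against D0 had the opposite sign. They are given here because the difference between the changes, the step from W6 to W12, was itself past the threshold in limma (Benjamini-Hochberg adjusted P under 0.05). The log2 change from W6 to W12 was −1.33 for Smarcd1, −1.23 for Paxip1, −1.21 for Hcfc1, −1.19 for Arid1a, −1.16 for Smarca4, −1.16 for Smarcb1, −0.82 for Smarcc1, −0.72 for Arid2 and −0.54 for Wdr5. The steps of Smarca4, Smarcb1, Smarcd1 and Paxip1 passed the threshold in all 14 alternatives, whereas that of Wdr5 passed in 3 of 14 and its W6 change from D0 was 0.07 ± 0.16 (SE). None of the 9 was called above D0 at W6 in the deposited values. After the length and GC correction, 5 of these steps were still called, those of Smarcd1, Paxip1, Smarca4, Smarcb1 and Smarcc1. On that scale the fall at W12 against D0 was called only for Smarcb1 (−0.71) and was lost for the other 8, whose changes lay between −0.27 (Arid2) and −0.03 (Smarca4), while Smarca4 (0.50), Smarcc1 (0.43), Smarcd1 (0.59) and Paxip1 (0.62) were called above D0 at W6. The W6 skin was intact and the W12 skin grafted, which cannot be told apart from the time between them.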

How the results depend on the processing

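The length and GC correction changed the number of regulators called and gave, against D0, 12 each at W6 and W12, 2 at W1 and 1 at W2, 6 from W6 to W12, and 20 in the F test. It also reversed Dpy30 (−0.26) and Crebbp (0.13) at W12 against D0. Median-ratio scaling gave 1 at W1 (lower) and 12 from W6 to W12, quantile normalization 1 at W1 (lower), and eBayes without the trend 3 at W1 (all higher). With all genes above 0 TPM the numbers were 2 at W6, 1 from W2 to W6 and 12 from W6 to W12. With only the compared timepoints they were 0 at W6, 1 from W2 to W6 and 5 from W6 to W12. Leaving out 1 library at a time gave ranges of 0 to 2 at each of W1 and W2, 1 to 9 at W6, 13 to 30 at W12, 0 to 2 from W2 to W6, 6 to 16 from W6 to W12, and 17 to 36 in the F test. The 9 at W6 came without D0 replicate 1 and the 13 at W12 without W12 replicate 1. A pseudocount of 0.1 and a mean of at least 5 TPM kept each of these numbers within 1.5 times. The cause of these moves was not tested.

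The replicate block gave 1 call at each of W1 and W2, both lower, 4 calls at W6, 25 at W12, 1 from W2 to W6 and 16 from W6 to W12. The numbers alone pair these libraries, since same-numbered libraries are different mice and their deviations correlated between −0.129 and 0.182. Crossed numbers, added after the data were seen where this correlation was under −0.1, gave 0 at W1, 4 at W6 and 23 from W6 to W12.

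Of 747 alternative values for the 56 called changes of single genes, 535 kept direction and threshold, 210 kept direction only and 2 reversed. Arid1b, Dpf2, Ep300, Kmt2a, Kmt2c, Smarcb1, Smarcc2 and Smarcd2 stayed called at W12 against D0 in every alternative counted, and no gene called at W6 did. TPM keep no depth, and precision was judged from 2 libraries a timepoint.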
